A study of Arabidopsis thaliana with 10 samples.

Results

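The methionine sulfoxide reductase B (MSRB) family of Arabidopsis thaliana was examined in roots of the mcu123 mutant and of the Col-0 wild type. All 9 genes, MSRB1 to MSRB9, were found by locus code among the 27826 rows of the deposited expression table. The mcu123 line is labelled a knockout of 3 MCU genes, which encode pore subunits of the mitochondrial calcium uniporter; the labels do not give its alleles. Col-0 is the wild type, and the same growth conditions are given for both genotypes: sterile hydroponics with 0.1% sucrose, 16 h of light at 21 °C and 8 h of darkness at 17 °C. Roots were cut off at 20 days, and each of the 5 mcu123 and 5 Col-0 samples was RNA from pooled roots, hybridised to 1 Affymetrix array. The labels do not say whether the pools came from separate cultures, so p-values measure the spread between these samples.

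Reactive oxygen species oxidise methionine residues of proteins to methionine sulfoxide, and methionine sulfoxide reductases turn it back. The sulfoxide has a pair of mirror forms at its sulfur: MSRA enzymes reduce the S form and MSRB enzymes the R form, and thioredoxins or glutaredoxins commonly return the reductases to their active state. In Arabidopsis MSRB1 and MSRB2 are plastid enzymes, MSRB3 is an enzyme of the endoplasmic reticulum, and the other members are assigned to the cytosol. MSRB7 is known for raising tolerance of oxidative stress when overproduced.

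The family was chosen by a measured value: MSRB7 had passed the test between the genotypes in an earlier pass over these same arrays (limma adjusted p = 0.045 over all rows). The genotype differences of its members below are therefore descriptions and carry no test. Values are log2 intensities after RMA, the authors' normalisation and probe summary, so a difference of 1 stands for a 2-fold change. Probe sets differ in brightness, so levels of different genes are compared only roughly, by the array median or the bottom of the scale. Each array had a median of 4.30, and 8 of the 9 members averaged above it over all 10 arrays.

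Arrays of 1 genotype correlated at 0.966 to 0.991 over all rows, and arrays of different genotypes at 0.969 to 0.990. The array of mcu123 replicate 3 stood apart from the other 9 on the main axis of variation, with 25.7% of the total, and limma gave it the smallest weight (0.39). Values without it are given for the members, their neighbours and the list medians, and for other genes where it moved them most. The targeted genes MCU1 and MCU3 fell by 1.66 and 1.98 in mcu123 (limma adjusted p = 4.0e-04 for each), while MCU2 lay at 2.77 ± 0.27 in mcu123 and 2.86 ± 0.29 in Col-0 (SD, n = 5 each). The 7 root markers averaged between 4.27 and 9.36 over the arrays. Of the 7 markers of photosynthetic shoot tissue, 2 averaged above the array median, namely RBCS1A at 6.03 ± 1.16 in mcu123 and 5.56 ± 0.94 in Col-0 and RCA at 4.49 ± 0.29 in mcu123 and 4.72 ± 0.16 in Col-0 (SD, n = 5 each).

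The genotype difference of the family lay in 3 neighbouring genes of chromosome 4. MSRB7, MSRB8 and MSRB9 were lower in mcu123 by 1.53, 2.42 and 1.12 on the log2 scale, and the other 6 members differed by less than 0.25 in either direction. A difference of -1 or lower was held by 0.456% of all rows. Among the 27826 differences ordered from the most negative, MSRB8 was at place 2, MSRB7 at place 22 and MSRB9 at place 81.

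**Figure D1:**
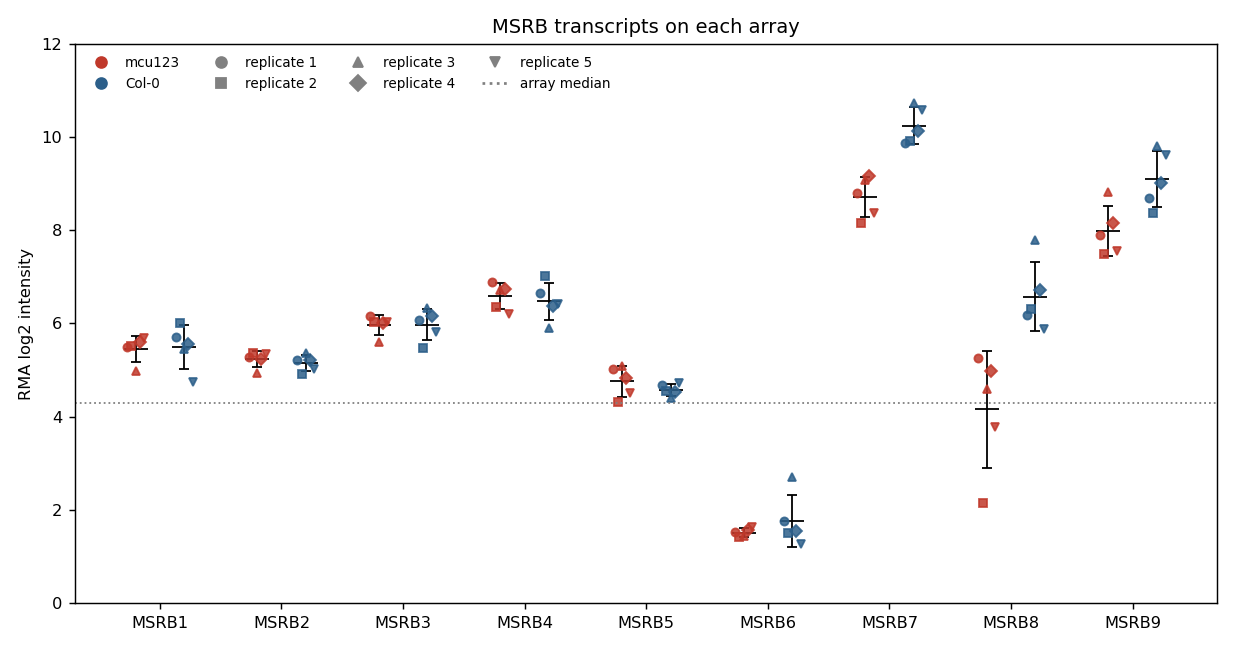
RMA log2 intensity of each MSRB transcript on every array, with mcu123 on the left and Col-0 on the right of each pair; marker shapes give the replicate, bars the mean and SD over 5 arrays, and the dotted line the array median of 4.30. The groups are apart for MSRB7 and MSRB8, nearly apart for MSRB9 and interleaved for the other 6 genes.

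MSRB7 (AT4G21830), a cytosolic reductase, measured 8.81, 8.16, 9.07, 9.16 and 8.38 in mcu123 replicates 1 to 5, against 9.87, 9.91, 10.72, 10.13 and 10.59 in Col-0 replicates 1 to 5. Every mcu123 array lay below every Col-0 array, with 0.71 between the highest mcu123 array and the lowest Col-0 array. The means were 8.72 ± 0.44 in mcu123 and 10.25 ± 0.39 in Col-0 (SD, n = 5 each), so the transcript was 2.89-fold lower (log2 difference -1.53, SE 0.23, 95% interval -2.03 to -1.03). Without mcu123 replicate 3 the difference was -1.62.

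MSRB8 (AT4G21840), the next gene along the chromosome and also a cytosolic reductase, differed most within the family. It measured 5.25, 2.14, 4.60, 4.99 and 3.79 in mcu123 replicates 1 to 5, against 6.18, 6.31, 7.79, 6.71 and 5.89 in Col-0 replicates 1 to 5. The groups did not overlap, and mcu123 replicate 2 lay far below the other mutant arrays. The means were 4.15 ± 1.25 in mcu123 and 6.58 ± 0.74 in Col-0 (SD, n = 5 each), a level 5.36-fold lower (log2 difference -2.42, SE 0.53, 95% interval -3.58 to -1.26). With any 1 array left out the difference stayed between -2.70 and -1.92, the smaller size being that without mcu123 replicate 2, and it was -2.53 without mcu123 replicate 3. The spread of this gene within genotypes was wide: 99.7% of all rows had a smaller within-genotype SD. Its mcu123 mean of 4.15 lay below the array median of 4.30. Without detection calls, how near the value of 2.14 in mcu123 replicate 2 lies to background is not known, so the fold is uncertain.

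MSRB9 (AT4G21850), the gene after MSRB8, measured 7.90, 7.48, 8.81, 8.16 and 7.56 in mcu123 replicates 1 to 5, against 8.70, 8.38, 9.80, 9.02 and 9.63 in Col-0 replicates 1 to 5. The groups overlapped through mcu123 replicate 3, which at 8.81 lay above Col-0 replicates 1 and 2, while the other mutant arrays lay below all Col-0 arrays. The means were 7.99 ± 0.54 in mcu123 and 9.10 ± 0.60 in Col-0 (SD, n = 5 each), a level 2.17-fold lower (log2 difference -1.12, SE 0.30, 95% interval -1.78 to -0.46). Without mcu123 replicate 3 the difference was -1.33.

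MSRB2 (AT4G21860), which encodes a plastid enzyme, closes the same tandem cluster, and its values were interleaved between the genotypes. It measured 5.27, 5.37, 4.94, 5.25 and 5.35 in mcu123 replicates 1 to 5, against 5.21, 4.92, 5.38, 5.21 and 5.03 in Col-0 replicates 1 to 5. The means were 5.23 ± 0.17 in mcu123 and 5.15 ± 0.18 in Col-0 (SD, n = 5 each), a log2 difference of 0.09 with a 95% interval from -0.19 to 0.36. The difference was 0.16 without mcu123 replicate 3.

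In all, 1 of the 9 members, MSRB7, passed the limma test over all rows, where 0.0431% of rows passed in either direction. That call was lost with cyclic loess, without the dimmest 30% of rows, with the replicate number as a block (0 members passed in each), and without any 1 array other than mcu123 replicate 3. In the other 8 members the adjusted threshold was not reached (limma adjusted p = 0.20 for MSRB8 and 0.34 for MSRB9). The groups did not overlap for 2 members, MSRB7 and MSRB8, both lower in mcu123, where 1.02% of all rows had groups that did not overlap with mcu123 lower. Since MSRB7 brought the family in, these counts are not evidence about the family. In whole roots, fewer cells of a type and less transcript per cell cannot be told apart. Probe sequences were not used here, and how far the probes of these related neighbours respond to each other's transcripts was not tested.

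The other members did not follow the trio. MSRB1 (AT1G53670), the plastid enzyme encoded on chromosome 1, ranged from 4.99 to 5.68 in mcu123 and from 4.74 to 6.003 in Col-0, with means of 5.45 ± 0.27 in mcu123 and 5.49 ± 0.47 in Col-0 (SD, n = 5 each). Its log2 difference of -0.04 (95% interval -0.50 to 0.43) was 0.08 without mcu123 replicate 3, the lowest mutant array. The shoot marker list, whose genes serve chloroplasts, had array means of 2.48 to 3.13 in mcu123 and 2.50 to 2.78 in Col-0; its part in the values of MSRB1 and MSRB2 was not tested.

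MSRB3 to MSRB6 form the other tandem cluster of chromosome 4. MSRB3 (AT4G04800), the enzyme of the endoplasmic reticulum, averaged 5.97 ± 0.21 in mcu123 and 5.97 ± 0.34 in Col-0 (SD, n = 5 each), with a 95% interval of the difference from -0.37 to 0.36. MSRB4 (AT4G04810) ranged from 6.21 to 6.89 in mcu123 and from 5.91 to 7.01 in Col-0, a log2 difference of 0.11 (95% interval -0.32 to 0.54). MSRB5 (AT4G04830) averaged 4.76 ± 0.34 in mcu123 and 4.57 ± 0.13 in Col-0 (SD, n = 5 each), a log2 difference of 0.18 (95% interval -0.16 to 0.52). MSRB4 and MSRB5 had groups that overlapped, with mcu123 slightly higher on average. The differences of MSRB3, MSRB4 and MSRB5 were 0.09, 0.08 and 0.10 without mcu123 replicate 3.

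MSRB6 (AT4G04840) lay near the bottom of the scale, from 1.41 to 1.62 in mcu123 and from 1.27 to 2.70 in Col-0. Its log2 difference of -0.24 (95% interval -0.72 to 0.23) rested on Col-0 replicate 3, the array at 2.70, and was -0.01 without it, -0.36 without Col-0 replicate 5 and -0.23 without mcu123 replicate 3. Without detection calls such low values cannot be separated from background. As a family the 9 members had a median difference of -0.04, beside 0.01 for all rows, and of 0.08 without mcu123 replicate 3.

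**Figure D2:**
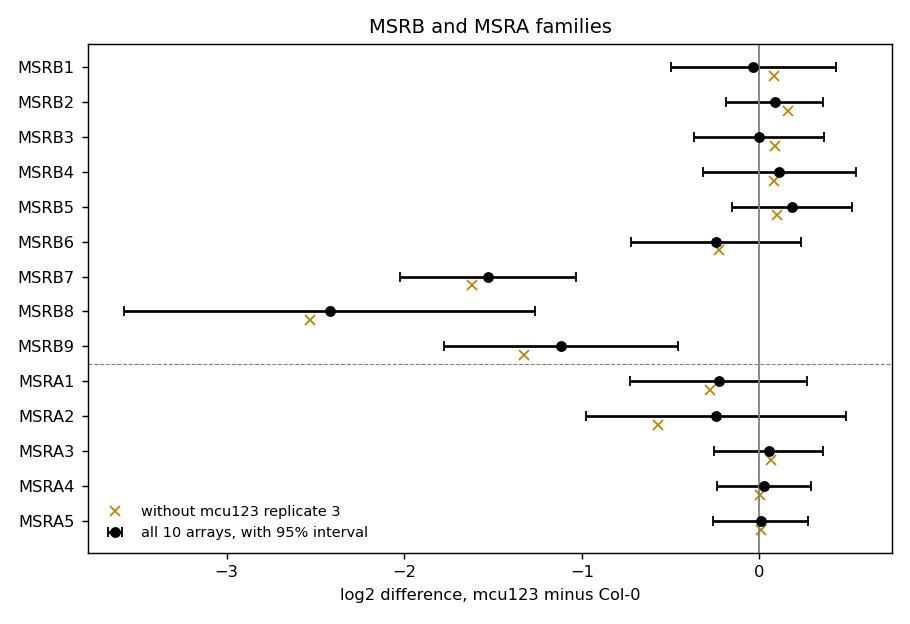
Log2 difference, mcu123 minus Col-0, of the MSRB genes (above the dashed line) and MSRA genes (below it); dots and bars are the limma estimate and its 95% interval over 10 arrays, and crosses the estimate without mcu123 replicate 3. MSRB7, MSRB8 and MSRB9 lie at -1.53, -2.42 and -1.12. The intervals are not adjusted for the number of rows, and those of the MSRB genes are descriptions that carry no test.

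Among the genes measured in and around the MSRB7 to MSRB2 cluster, a difference of -1 or lower was held by MSRB7, MSRB8 and MSRB9 only. In the RefSeq gene order (assembly TAIR10.1, used for order and names only), no gene stands between MSRB7, MSRB8, MSRB9 and MSRB2. The 3 measured genes before MSRB7 were QQT2, DER2.1 and AT4G21820, with log2 differences of 0.12, -0.11 and -0.06 (limma adjusted p = 0.84, 0.90 and 0.96). The 3 measured genes after MSRB2 were AT4G21865, AT4G21870 and AT4G21880, at -0.14, 0.20 and 0.17 (limma adjusted p = 0.89, 0.95 and 0.83). Without mcu123 replicate 3 the genes before MSRB7 were at 0.08, -0.05 and -0.12, and those after MSRB2 at -0.27, -0.28 and 0.17, so the direction of AT4G21870 turned with that array. None of these 6 genes passed, and AT4G21820 is the nearest measured gene before the trio.

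Around the MSRB3 to MSRB6 cluster the 3 measured genes before it, AT4G04775, MED21 and AT4G04790, were at -0.48, 0.19 and -0.07 (limma adjusted p = 0.79, 0.84 and 0.94). The 3 after it, KEA3, DER2.2 and CLS, were at -0.11, -0.19 and 0.04 (limma adjusted p = 0.89, 0.77 and 0.97). Without mcu123 replicate 3 the values were -0.38, 0.30 and -0.07 before the cluster and -0.11, -0.20 and -0.06 after it, where CLS took the other sign. MED21 encodes a subunit of the Mediator complex, KEA3 a potassium exchanger of the thylakoid and CLS the cardiolipin synthase of mitochondria. The pseudogene AT4G04820 and the noncoding gene AT4G04995 lie inside this cluster, and no value of either was used here.

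**Figure D3:**
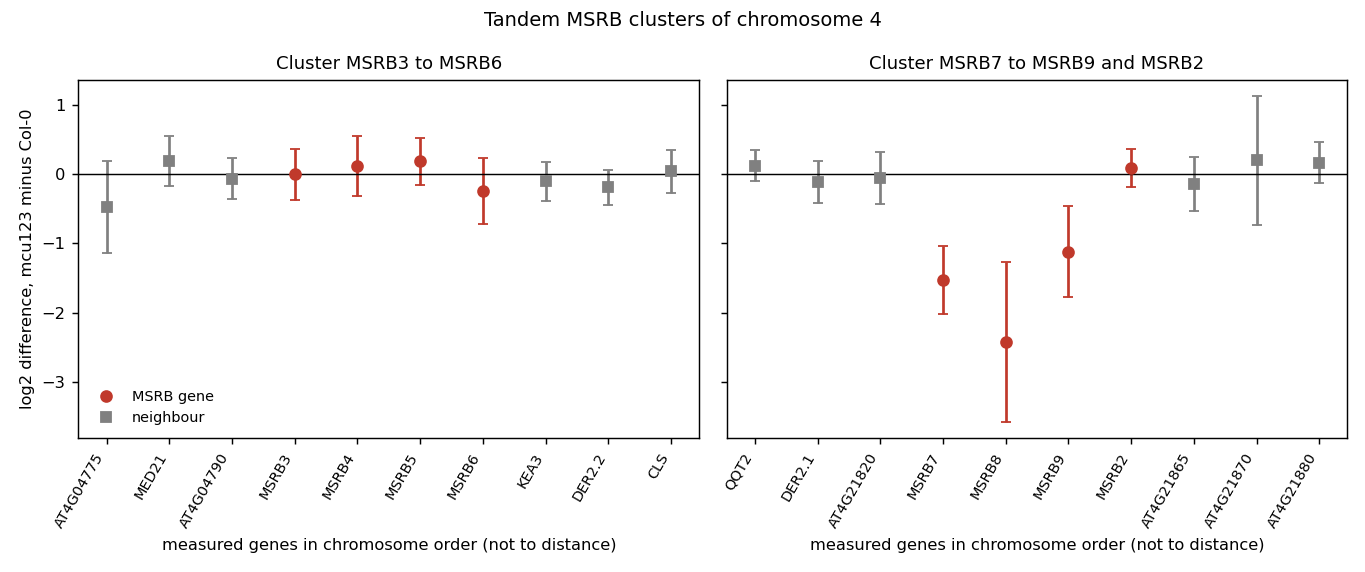
Log2 difference, mcu123 minus Col-0, with its 95% interval for the measured genes of both tandem clusters in chromosome order, equally spaced; MSRB genes are circles and their neighbours squares. In the right panel the drop to -1.53, -2.42 and -1.12 is held by MSRB7, MSRB8 and MSRB9 and is bounded by AT4G21820 at -0.06 and MSRB2 at 0.09.

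How the members varied among arrays of 1 genotype does not enter the genotype difference. Each array's deviation from its own genotype mean was taken, and Pearson's r of these deviations was computed over the 10 arrays, as a description with no test, since the arrays share their group means and normalisation. MSRB7 and MSRB9 varied closely together (r = 0.90, and 0.92 without mcu123 replicate 3). MSRB7 and MSRB8 had r = 0.72, and 0.71 without that array. MSRB8 and MSRB9 were less alike, at 0.52 with and without it. MSRB5, outside the trio, was as like MSRB8 as MSRB9 was, with r = 0.54 with and without that array. MSRB6 had 0.52 and 0.54, but it lay near the bottom of the scale. Its largest deviation, 0.94, was in Col-0 replicate 3, where MSRB8 was highest of the wild-type arrays. MSRB1, MSRB2, MSRB3 and MSRB4 had 0.00, 0.00, 0.26 and 0.08 with MSRB8 over all arrays. MSRB5 had 0.53 with MSRB7, and 0.44 without mcu123 replicate 3. Among all rows ordered by r, MSRB9 stood at place 17 in likeness to MSRB7 and MSRB8 at place 449. In likeness to MSRB8, MSRB9 stood at place 2432. The r values were not computed without any other single array. One such array is mcu123 replicate 2, with deviations of -0.56, -2.01 and -0.50 for MSRB7, MSRB8 and MSRB9. The deviation of -2.01 is the largest in size for MSRB8, and how far the r values rest on that array was not tested.

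On single arrays the trio did not always move together. In mcu123 replicate 2 all 3 genes were lowest of the mutant arrays, with deviations of -0.56 for MSRB7, -2.01 for MSRB8 and -0.50 for MSRB9. In Col-0 replicate 3 all 3 were highest of the wild-type arrays, at 0.48, 1.22 and 0.70. In Col-0 replicate 5 MSRB7 and MSRB9 were above their genotype means by 0.35 and 0.52, whereas MSRB8 was lowest of the wild-type arrays at -0.69. In mcu123 replicate 1 MSRB8 was highest of the mutant arrays at 1.099, while MSRB7 and MSRB9 were at 0.09 and -0.08. In Col-0 replicate 4 MSRB8 was at 0.14, and MSRB7 and MSRB9 were at -0.12 and -0.09.

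MSRB2 did not vary with its cluster neighbours. Its r was -0.17 with MSRB7, 0.00 with MSRB8 and -0.17 with MSRB9, and 0.08, 0.16 and 0.36 without mcu123 replicate 3. It varied instead with MSRB3 of the other cluster (r = 0.92, and 0.91 without that array), the highest of the 36 pairs of members over 10 arrays, while without it MSRB7 and MSRB9 had the higher r. MSRB1 ran against MSRB9 (r = -0.78, and -0.71 without that array), and MSRB4 against MSRB2 (r = -0.68, and -0.80 without it).

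**Figure D4:**
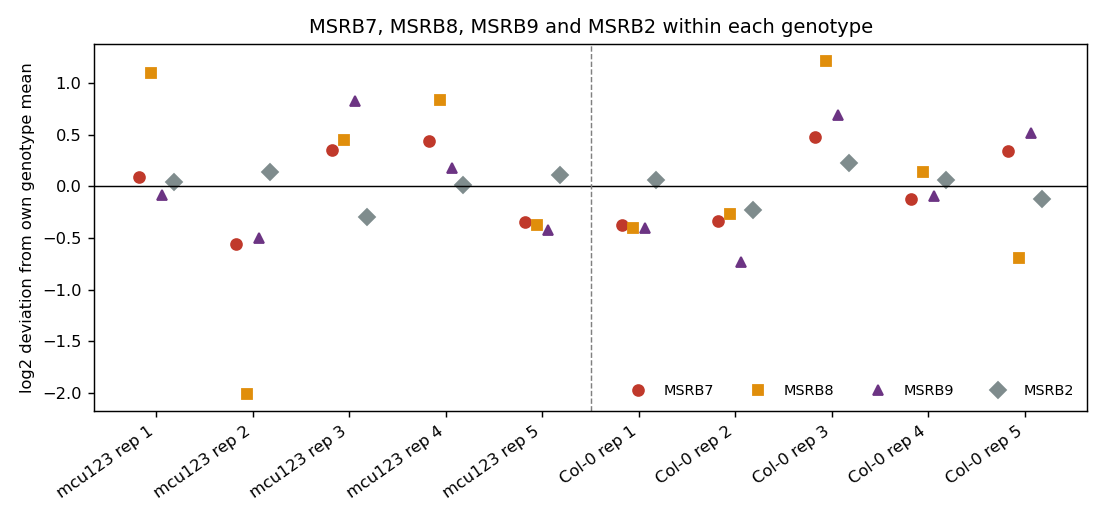
Deviation of MSRB7, MSRB8, MSRB9 and MSRB2 from their own genotype mean on each array (log2 scale), with mcu123 arrays left of the dashed line and Col-0 arrays right of it. MSRB7 and MSRB9 take the same side of 0 on 9 of 10 arrays, and MSRB8 departs from them most in mcu123 replicates 1 and 2 and in Col-0 replicate 5.

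The rows most like MSRB7 by this measure were AtMYB103 (r = 0.960), AT1G35830 (0.952), BCS1 (0.952), FLS1 (0.943) and sks3 (0.942). AtMYB103 is a MYB transcription factor, BCS1 (AT3G50930) an ATPase of the mitochondrial outer membrane, FLS1 a flavonol synthase and sks3 a member of the SKU5-similar family. All 5 averaged below the array median. AtMYB103 lay at 1.68 ± 0.24 in mcu123 and 1.62 ± 0.16 in Col-0 (SD, n = 5 each), as low as MSRB6, and cannot be separated from background. Their genotype differences were 0.06, -0.39, -0.25, 0.02 and -0.08, and none passed the test (limma adjusted p = 0.95, 0.75, 0.88, 0.99 and 0.95).

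MSRB8 was most like AT2G34350 (r = 0.960), which measured 4.55 ± 0.61 in mcu123 and 5.95 ± 0.38 in Col-0 (SD, n = 5 each) without overlap. AT2G34350 did not pass the test (limma adjusted p = 0.13). Without mcu123 replicate 3 the row most like MSRB8 was AT4G29930 (r = 0.970). AT4G29930 had a log2 difference of -1.98 over all arrays and passed the test (limma adjusted p = 0.0077). MSRB9 was most like AT3G59710 (r = 0.963), at a log2 difference of -0.37 (limma adjusted p = 0.76). For MSRB1, MSRB2 and MSRB3 the most alike rows were AT4G29905 (r = 0.992), AT4G26400 (0.981) and AT3G10180 (0.981). For MSRB4, MSRB5 and MSRB6 they were AGL65 (0.972), CYCB3;1 (0.947) and AT2G30720 (0.966). Without mcu123 replicate 3 the row named for MSRB1 kept place 1. The rows named for MSRB2 to MSRB6 moved to places 6, 5, 4, 17 and 3. AT2G34350 and AT3G59710 moved to places 3 and 6. With so few arrays and so many rows, high values of r are common, and they say nothing of shared control.

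The MSRA family, which reduces the other form of the sulfoxide, had no member that passed the test. The cytosolic MSRA1 and MSRA2 had log2 differences of -0.23 and -0.25 (limma adjusted p = 0.87 and 0.91). MSRA2 was high in mcu123 replicate 3, at 6.83, against 4.98 to 5.31 in the other mutant arrays, and its difference was -0.57 without that array. The cytosolic MSRA3, the plastid MSRA4 and the secretory MSRA5 were at 0.05, 0.02 and 0.01 (limma adjusted p = 0.96, 0.98 and 0.995).

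Including MSRA, 7 lists of 93 genes around methionine oxidation and repair were read from the same fit. None of the 93 passed the limma test over all rows, where 0.0431% of rows did, and 11 had an unadjusted limma p under 0.05, where 7.46% of all rows did. Groups did not overlap for 4 of the 93, all lower in mcu123, where 1.02% of all rows did so, and the median difference of the 93 was 0.02, beside 0.01 for all rows.

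The thioredoxin systems, which supply electrons to these reductases, stayed within small differences. Of 12 cytosolic and mitochondrial genes none passed, with differences from -0.31 to 0.28 and a median of -0.07. TRXh5, a cytosolic thioredoxin known from defence responses, averaged 8.26 ± 0.15 in mcu123 and 8.58 ± 0.08 in Col-0 without overlap (SD, n = 5 each; limma adjusted p = 0.50). The thioredoxin reductase NTRA and the thioredoxin TRXh4 were at 0.28 and 0.27 (limma adjusted p = 0.60 and 0.80). Of 15 plastid genes none passed, with a median of 0.06, and TRXz, TRXx and TRXf1 were the members of smallest p at -0.32, 0.18 and -0.20 (limma adjusted p = 0.74, 0.75 and 0.77).

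None of 15 glutaredoxin and glutathione genes passed, and their median difference was -0.02. GSH1, which encodes the first enzyme of glutathione synthesis, averaged 8.82 ± 0.09 in mcu123 and 9.12 ± 0.12 in Col-0 without overlap (SD, n = 5 each; limma adjusted p = 0.51). The glutaredoxin GRX480 averaged 4.32 ± 0.25 in mcu123 and 5.35 ± 1.11 in Col-0, where replicate 3 was at 6.90 and replicate 5 at 3.77 (limma adjusted p = 0.62). GRXC5, a plastid glutaredoxin, was at 0.32 (limma adjusted p = 0.64).

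Of 24 genes for removal of peroxide and superoxide none passed, 16 had higher means in mcu123, and the median was 0.09. The cytosolic ascorbate peroxidase APX1 averaged 8.00 ± 0.09 in mcu123 and 8.31 ± 0.12 in Col-0 without overlap (SD, n = 5 each; limma adjusted p = 0.47). The mitochondrial peroxiredoxin PRXIIF and the peroxidase GPX8 were at 0.35 and 0.28 (limma adjusted p = 0.57 and 0.70). In methionine synthesis and use none of 13 genes passed, and the median was 0.05. HMT3, a homocysteine methyltransferase, averaged 4.65 ± 0.34 in mcu123 and 5.48 ± 0.46 in Col-0 (SD, n = 5 each; limma adjusted p = 0.34). MGL, which breaks methionine down, and the methionine synthase gene MS2 were at -0.41 and 0.49 (limma adjusted p = 0.80 and 0.81), and at -0.12 and 0.11 without mcu123 replicate 3.

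The 9 oxidative stress response genes had a median difference of -0.24, and none passed. Only 2 of the 9 averaged above the array median. The median difference is that of ATTI1, at 1.79 ± 0.21 in mcu123 and 2.04 ± 0.49 in Col-0 (SD, n = 5 each). Without detection calls such low values cannot be separated from background. OXI1, a kinase induced by hydrogen peroxide, measured 2.49, 1.93, 2.57, 2.55 and 1.99 in mcu123 replicates 1 to 5, against 3.32, 2.83, 3.85, 3.16 and 2.73 in Col-0 replicates 1 to 5. Its groups did not overlap, with a log2 difference of -0.87 (SE 0.22, limma adjusted p = 0.25). The zinc finger genes ZAT12 and ZAT11 were at -1.20 and -0.96 (limma adjusted p = 0.30 and 0.53), and their groups overlapped. Without mcu123 replicate 3 the list medians were 0.0045 for MSRA, -0.13 for cytosolic and mitochondrial and 0.02 for plastid thioredoxin systems, 0.07 for glutaredoxins and glutathione, 0.13 for peroxide and superoxide removal, 0.01 for methionine and -0.31 for oxidative stress response.

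Within genotypes the 93 genes ran both with and against the trio. The extremes over 10 arrays are given here, and TRXm1, TRXo2, CSD3 and TRXh2 were named after their values were seen. For MSRB7 they were GSH1 (r = 0.80, and 0.77 without mcu123 replicate 3) and TRXm1 (-0.78, and -0.75 without it). For MSRB8 they were the thioredoxin TRXo2 (0.87 with and without that array) and PRXIIF (-0.81, and -0.91 without it). For MSRB9 they were MSRA2 (0.88, and 0.86 without it) and the superoxide dismutase CSD3 (-0.82, and -0.71 without it). Some extremes changed without mcu123 replicate 3. For MSRB7 they were then TRXh5 (0.82, against 0.51 over 10 arrays) and CSD3 (-0.81, against -0.77). For MSRB9 the lowest was then the thioredoxin TRXh2 (-0.73, against -0.65).

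**Figure D5:**
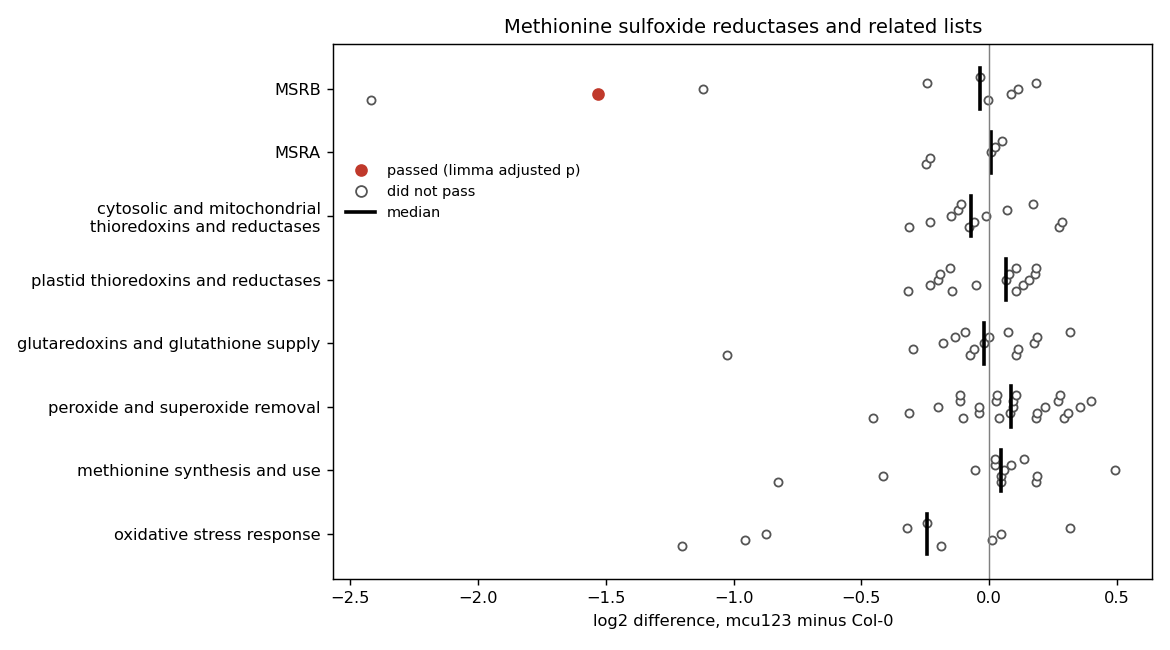
Log2 difference, mcu123 minus Col-0, of each gene in the MSRB and MSRA families and in 6 related lists; each circle is a gene, filled where it passed the limma test over all rows, and the black line is the list median. MSRB7 is the filled circle at -1.53. The median of the oxidative stress response list lies lowest, at -0.24, but only 2 of its 9 genes averaged above the array median.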

How the data were processed

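The authors deposited log2 intensities made by RMA, as the submitters' processing notes state; the sources used here do not give the array model, probe grouping or genome build. RMA equalises all arrays, so a shift shared by all genes cannot be read, and precision is limited by the number of arrays. The genotypes were tested in limma 3.58.1 under R 4.3.3 (lmFit and eBayes, genotype as the single term, two-sided, Benjamini-Hochberg adjustment over 27826 rows, threshold 0.05), with no filter on low values. On simulated data with 200 changed rows in each of 5 runs, this fit called 16.8% of changes of 0.5 on the log2 scale. It called 73.6% of changes of 1.0 and 93.2% of 1.5, and 4.61% of its calls were false. The simulated noise was normal and independent between rows, with no array standing apart as mcu123 replicate 3 does. In the deposited values 12 rows passed, so these shares do not tell how often a real change of that size is called. Summaries used Python 3.11.15.

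The members and lists were chosen with earlier results of these data known. Named were all MSRB and MSRA genes, any called member and the 3 of smallest p in each other list. Named too were 3 measured neighbours on each side of each cluster, and the rows of highest r (5 for MSRB7, 1 for each other member). ATTI1 and AT4G29930 were named after their values were seen. Alternatives were cyclic loess, dropping the dimmest 30% of rows, array weights, a trended and robust prior, a block for the replicate number, and each array left out. The sources used here name no date or batch.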

Additional observations from a re-analysis of the deposited data

Results flagged for a closer look

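Among 64 sets of 5 arrays (MSRB and MSRA genes and the named list genes, by genotype), 6 held an array far from the others. Independent sets with normal noise would give about 3.2, but these sets share the same 10 arrays, so the numbers cannot be compared closely. Of the 6, 4 were mcu123 replicate 3. There MSRB1 measured 4.99, with the nearest mutant array at 5.49 (the gap is 0.72 of the range), and MSRA2 measured 6.83, with the nearest at 5.31 (0.82). In the same array the methionine synthase gene MS2 was at 8.75, with the nearest at 7.07 (0.77), and MGL at 7.71, with the nearest at 8.94 (0.72). TRXh4 was at 5.996 in mcu123 replicate 2, with the nearest at 5.43 (0.73). MSRA5 was at 5.65 in Col-0 replicate 3, with the nearest at 5.17 (0.87). None of the sets for MSRB7, MSRB8 or MSRB9 was among the 6.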

How the results depend on the processing

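MSRB7, MSRB8 and MSRB9 were lower in mcu123 under all 15 alternatives, from -1.64 to -1.39, from -2.70 to -1.92 and from -1.33 to -0.94. Much of that was fixed in advance. The replicate block, the trended and robust prior and dropping the dimmest rows leave a difference as it is. For MSRB7 and MSRB8, whose groups did not overlap, neither array weights nor leaving 1 array out can reverse the sign. MSRB7 passed limma with array weights, with a trended and robust prior and without mcu123 replicate 3, and under no other alternative. The count of MSRB members that passed was thus 0 with cyclic loess, without the dimmest 30% of rows and with the replicate block, and 0 to 1 with each array left out, being 0 without any of the 9 others; the cause was not tested. The labels state no pairing by replicate number. Deviations of same-numbered arrays correlated at -0.21 to 0.09 over all rows, which cannot settle whether samples were paired. No member of the 7 related lists passed under any alternative. The MSRB6 difference ran from -0.36 to -0.0095 with 1 array left out, and its row is absent without the dimmest rows. Among all rows, 12 passed as deposited, 30 with array weights, 35 with the trended and robust prior, 7 without the dimmest 30% of rows, and 5 to 22 with each array left out; the cause was not tested.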
